A study of Mus musculus with 4 samples.

Results

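The lymphatic vessel genes Ccl21a, Lyve1, Flt4, Mmrn1 and Pdpn were followed section by section along 4 mouse tibialis anterior muscles, the shin muscle that lifts the foot. They were chosen by name, with earlier results of these data known, and are 5 of the 28989 genes that have an entry of their own in the 4 deposited count tables. Each muscle had been cut into serial cryosections and the RNA of every section sequenced under its own barcode (TOMO-seq with CEL-Seq2, which counts transcript 3′ ends). The labels put all 4 muscles in 1 group, with no treatment, strain, sex or age, and do not say that they came from separate animals. The authors kept 37, 45, 46 and 43 sections of muscles 1 to 4, 171 in all. The sections were taken in barcode order, and the first end is here the one with the lowest barcode numbers. The labels do not say which anatomical end that was.

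Lymphatic capillaries take up tissue fluid and cells, and drain through collecting vessels to the lymph nodes. Their endothelium is specified by the transcription factor Prox1 and maintained by signals of the growth factor Vegfc through its receptor Flt4, also called VEGFR-3. Ccl21a makes a chemokine that lymphatic endothelium displays, and it attracts dendritic cells and T cells that carry the receptor Ccr7. Lyve1 is a hyaluronan receptor of lymphatic capillaries that some tissue macrophages also carry. Podoplanin, made by Pdpn, is a surface glycoprotein of lymphatic endothelium and of many fibroblasts, and it activates platelets through the receptor Clec1b. Mmrn1 makes multimerin 1, a secreted protein of lymphatic endothelium and platelets.

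Ccl21a was taken first with its sequence, because the mouse genome holds near-identical copies of it and a count can be split between them. Ccl21a lies on the minus strand at chr4:42772860-42773993 (GRCm38, GENCODE M21), where it overlaps 4930578G10Rik on the opposite strand. Its transcript has 870 bases, with the coding part at bases 76 to 477. The transcript of the copy Ccl21d, which that annotation names Gm21541 and places at chr4:41903610-41904743 on the plus strand, has the same length and differs at 6 bases, so that 99.3% of the bases are identical. Counted from 1 at the 5′ end of the Ccl21a transcript, the coding differences are T159A and C269T, with the Ccl21a base first. A further difference, G24A, is in the 5′ UTR, and C640T, T812C and G856A are in the 3′ UTR, 231, 59 and 15 bases from the 3′ end. The coding differences lie farther from that end, at 712 and 602 bases. Which of the differences separated the deposited counts was not tested. The coding windows are shown because they are the part of the transcripts by which Ccl21a and its copies are told apart in the protein-coding sequence, with the differing base in capitals:
Ccl21a, bases 145 to 173: agtgatggagggggTcaggactgctgcct
Ccl21d, bases 145 to 173: agtgatggagggggAcaggactgctgcct
Ccl21a, bases 255 to 283: ggcaatcctgttctCaccccggaagcact
Ccl21d, bases 255 to 283: ggcaatcctgttctTaccccggaagcact
The coding sequences of the copies Ccl21b and Gm10591 are identical to that of Ccl21d, and the transcript of Gm13304 is contained in it. In the deposited tables these copies have no entry of their own and are counted together in entries that name them all, apart from Ccl21a.

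The other members are single genes on other loci. Lyve1 lies at chr7:110850607-110863239 on the minus strand and Flt4 at chr11:49609263-49652739 on the plus strand. Mmrn1 lies at chr6:60924976-60989378 on the plus strand, and Pdpn at chr4:143267431-143299564 on the minus strand. None of these overlaps another annotated gene.

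All 5 genes were rare in whole-muscle RNA, and together they had 814 counts. The kept sections held 18924848, 17114433, 26989829 and 22878407 counts of single genes in muscles 1 to 4, and single sections from 86190 to 1159700. Values are given as counts per 1000000 of these (CPM), and mitochondrially encoded genes took from 59.1% to 66.9% of the total. Because 3′ ends were counted, a level does not scale with transcript length. In bulk sections fewer cells of a type and less RNA per cell cannot be told apart.

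Ccl21a was the most abundant of the 5, with 455 counts, or 55.9% of all counts of the members. Its level was 5.50, 7.54, 5.27 and 3.50 CPM in muscles 1 to 4, which is 5.45 ± 1.66 CPM (SD, n = 4). It was seen in 110 of the 171 sections.

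Lyve1 followed with 193 counts, and the muscles differed more. Its level was 2.85, 4.21, 1.33 and 1.36 CPM in muscles 1 to 4, a mean of 2.44 ± 1.38 CPM (SD, n = 4). Muscles 1 and 2, which were primed with one set of section barcodes, were both above muscles 3 and 4, which were primed with another. Flt4 had the same order of barcode sets at a lower level, 1.00, 1.29, 0.630 and 0.481 CPM, from 69 counts (0.850 ± 0.364 CPM, SD, n = 4). The sets hold 2 muscles each and a difference between them was not tested. Ccl21a was likewise higher in muscles 1 and 2, but its nearest values, 5.50 CPM in muscle 1 and 5.27 CPM in muscle 3, had overlapping 95% counting intervals of 4.49 to 6.66 and 4.43 to 6.20 CPM (exact Poisson, counting error only).

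Pdpn had 82 counts, a mean of 0.922 ± 0.252 CPM (SD, n = 4). Muscle 3, at 1.30 CPM, was above the 0.845, 0.760 and 0.787 CPM of muscles 1, 2 and 4. Mmrn1 was close to the limit of detection, with 15 counts in 14 sections. It had 4, 7 and 4 counts in muscles 2 to 4 and no entry in muscle 1, where a count of 0 allows up to 0.159 CPM (3 counts of that muscle's total, covering counting error only). The order of the mean levels was Ccl21a, Lyve1, Pdpn, Flt4 and Mmrn1. Ccl21a was above Lyve1 in every muscle, and Pdpn and Flt4 did not differ beyond their spread.

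The position of Ccl21a along the muscle was the reason for its choice, so its zone values are a description without a test. Ccl21a was concentrated toward the first end in all 4 muscles and nearly absent from the last. For this the kept sections of each muscle were split evenly by their rank into 5 zones, with zone 1 at the first end. Barcodes left out between kept sections, 4 in muscle 1 and 1 in muscle 3, took no place in this rank. Over the 4 muscles Ccl21a had 110, 184, 113, 45 and 3 counts in zones 1 to 5. Its mean level was 6.48 ± 2.55, 10.6 ± 4.02, 5.88 ± 3.11, 2.26 ± 0.655 and 0.260 ± 0.207 CPM (SD, n = 4 each). It was found in 32 of 33 sections of zone 2 and in 3 of 36 sections of zone 5.

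In zone 1 Ccl21a was at 9.82, 4.03, 5.04 and 7.01 CPM in muscles 1 to 4. In zone 5 it was at 0.300, 0.503 and 0.236 CPM in muscles 1 to 3, from 1 count each, and at 0 in muscle 4. Each value of the first end was above each value of the last end. The share of all genes divided in this way was not counted, so nothing is read from it. On the pooled counts zone 1 was 29.6 times as high as zone 5, with an exact 95% interval of 9.88 to 146 that covers counting error only. Ccl21a was chosen for its position, so the interval is no test, and it leaves out the spread among muscles. The difference between first end and last end was 3.06, 1.74, 2.29 and 3.0 on the log2(CPM + 1) scale in muscles 1 to 4.

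The peak was not at the outermost sections but inside the muscle. Zone 2 was the highest zone in muscles 1, 2 and 3, at 10.997, 15.04 and 10.94 CPM. In muscle 4 the order differed, since zone 1, at 7.01 CPM, was above zone 2, at 5.26 CPM, and each further zone was lower again. The sections at a relative position under 0.5 held 82.1%, 80.4%, 79.1% and 75.3% of the summed CPM of muscles 1 to 4. Counting from the first end, 50% of it was reached at section 10 of 37, 15 of 45, 16 of 46 and 13 of 43.

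In single sections the counts were spread over a broad stretch with gaps. The highest count was 12 in section 8 of muscle 1, 14 in section 13 of muscle 2, 23 in section 15 of muscle 3 and 8 in section 6 of muscle 4. The highest section level was 46.1 CPM, in section 12 of muscle 2. The 10 sections nearest the first end held 54, 19, 24 and 40 counts in muscles 1 to 4, against 5, 1, 1 and 0 counts in the 10 nearest the last end. The depth of these end stretches was 4663770, 3479970, 4905560 and 5829010 counts at the first end in muscles 1 to 4. At the last end it was 4935390, 2282960, 4241950 and 4638740. The first end was thus the deeper one in muscles 2, 3 and 4, which adds to the difference in raw counts there.

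**Figure D1:**
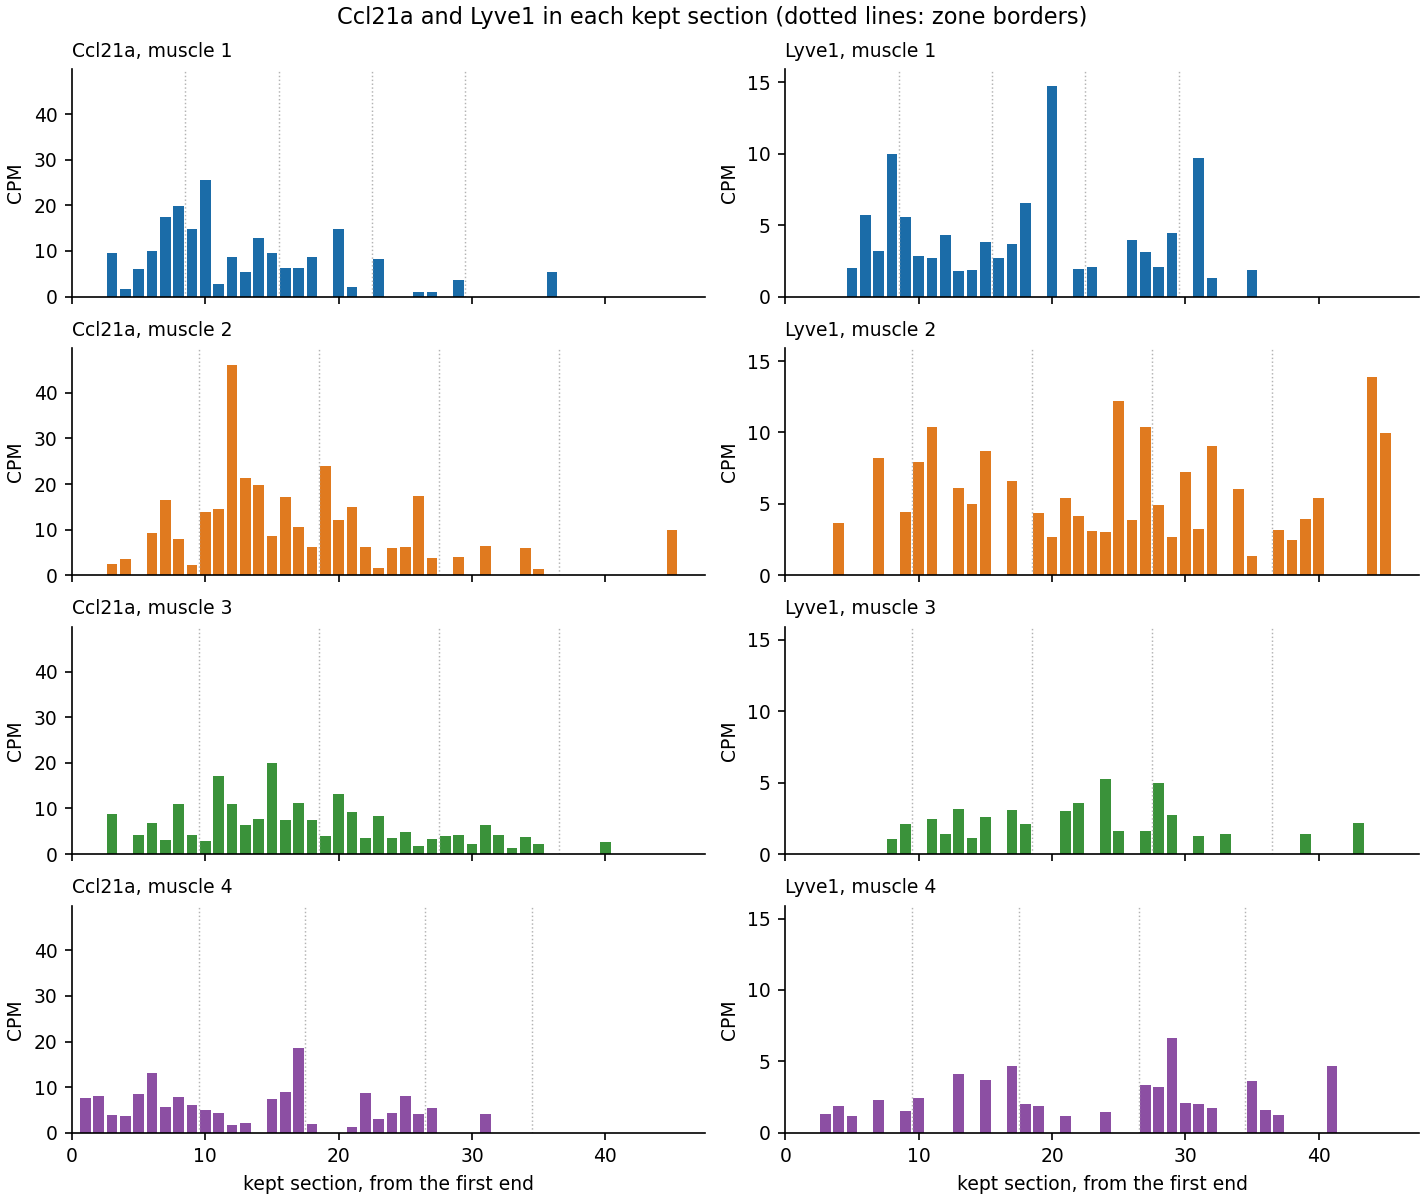
Level of Ccl21a (left) and Lyve1 (right) in CPM in every kept section of muscles 1 to 4, numbered from the first end, with dotted lines at the zone borders. Ccl21a bars fill the left of each panel, up to 46.1 CPM in muscle 2, and thin out to 1 or no bar in the last zone, while Lyve1 bars are scattered along the whole length.

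Lyve1, on the same lymphatic cells in textbook terms, did not share this course. It had 28, 54, 50, 43 and 18 counts in zones 1 to 5, at 1.81 ± 1.23, 3.32 ± 1.78, 2.698 ± 1.94, 2.43 ± 0.864 and 1.61 ± 1.32 CPM (SD, n = 4 each). At the first end it was at 3.45, 2.02, 0.658 and 1.11 CPM in muscles 1 to 4, against 1.20, 3.52, 0.471 and 1.26 CPM at the last end. These ranges overlapped, and the first end was higher in 2 of 4 muscles. On the pooled counts zone 1 was 1.26 times as high as zone 5, with an exact 95% counting interval of 0.672 to 2.41. Where zone 5 of muscle 2 had 1 count of Ccl21a, it had 7 counts of Lyve1.

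Lyve1 was lower at the ends than in the middle in 3 of 4 muscles. The difference between ends and middle was -0.43, -0.74, -0.83 and 0.39 on the log2(CPM + 1) scale in muscles 1 to 4, a mean of -0.40 ± 0.55 (SD, n = 4). For Ccl21a it was -0.69, -2.04, -1.16 and -0.50, below 0 in every muscle, with a mean of -1.10 ± 0.68. Both had their highest mean level in zone 2.

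Flt4, the receptor for Vegfc, was highest inside the muscle and lower at both ends. It had 7, 26, 22, 10 and 4 counts in zones 1 to 5, at 0.436 ± 0.173, 1.45 ± 0.672, 1.22 ± 0.802, 0.569 ± 0.378 and 0.339 ± 0.269 CPM (SD, n = 4 each). The ends were below the middle in 4 of 4 muscles, by -1.14, -0.74, -0.41 and -0.20 on the log2(CPM + 1) scale. In muscles 3 and 4 this direction rests on very few counts. Zones 1, 3 and 5 had 2, 3 and 0 counts in muscle 3, and 2, 3 and 1 in muscle 4. With 7 counts at the first end and 4 at the last, their ratio of 1.41 had an exact 95% counting interval of 0.360 to 6.59, so a difference between the ends was not detectable at this depth. In muscle 3 Flt4 was closest to Ccl21a, with 11 of its 17 counts in zone 2 and none in zone 5.

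Pdpn showed no such course. Its counts were 15, 14, 18, 19 and 16 in zones 1 to 5, and its mean level was 0.901 ± 0.0888 CPM at the first end, against 1.24 ± 0.355 CPM at the last end (SD, n = 4 each). The first end was higher in 1 of 4 muscles. In zone 5 the order of the members turned, with 16 counts of Pdpn and 18 of Lyve1 beside 3 of Ccl21a. Mmrn1 had 1, 2, 8, 3 and 1 counts in zones 1 to 5, and 5 of the 8 counts of zone 3 were from muscle 3. The 4 members without Ccl21a had together 51, 96, 98, 75 and 39 counts, spread over all zones.

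**Figure D2:**
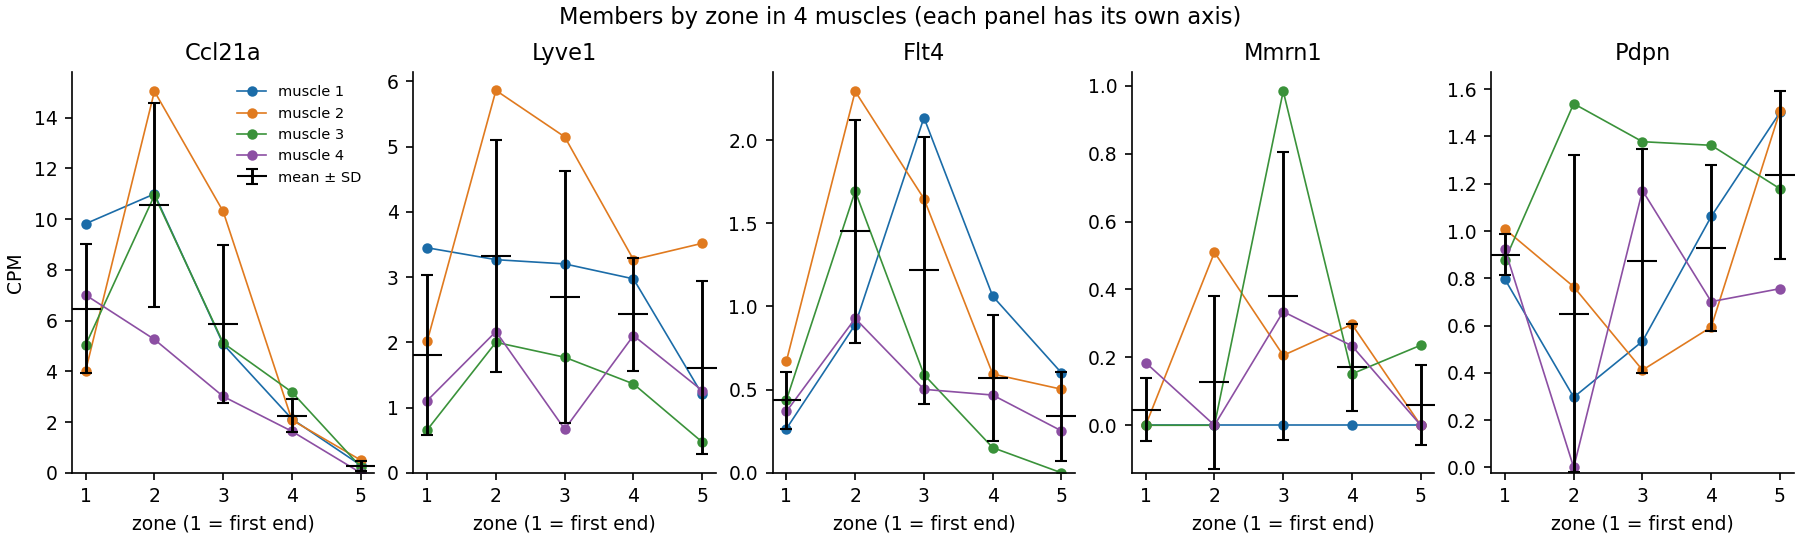
Level in CPM of each of the 5 members by zone, from the first end (1) to the last (5), with a point and line per muscle and the mean ± SD of the 4 muscles in black; each panel has its own axis. Ccl21a is at or below 0.503 CPM in zone 5 of all 4 muscles, while Pdpn has its highest mean, 1.24 CPM, there.

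In the fit over all genes (edgeR quasi-likelihood test on counts summed per muscle and zone, with muscle as a block), 9136 genes passed the filter on low counts. Of the 5 members Ccl21a and Lyve1 passed it, and Flt4, Mmrn1 and Pdpn did not. Between first end and last end 3.36% of the genes tested were called at an adjusted p under 0.05, and 1 of the 2 members tested, Ccl21a, was called. By direction 2.19% were called higher and 1.17% lower at the first end, where Ccl21a was higher. Between ends and middle 2.13% were called, 0.952% higher and 1.18% lower at the ends, where Ccl21a was lower. For any difference among zones 4.66% were called. In both, Ccl21a was called and Lyve1 was not. DESeq2 gave neither of them an adjusted p, and without the filter on low counts edgeR also called Flt4 for a difference among zones. In that unfiltered fit 351 of 28782 genes were called for such a difference. Nothing is read from these member calls, since the members were chosen from these data. The fitted log2 difference of Ccl21a was 4.82 ± 0.52 between first end and last end and -2.05 ± 0.36 between ends and middle (SE). That of Lyve1 was 0.42 ± 0.44 and -0.56 ± 0.31. Without muscle 1 the first value of Lyve1 turned to -0.16, so its direction rests on that muscle. The fitted value of Ccl21a depends on the 3 counts of zone 5 and was 3.10 with 3 zones in place of 5.

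Section by section, the members were weakly alike at most. Over the kept sections of a muscle, which share its library and depth, Pearson's r of log2(CPM + 1) between Ccl21a and Lyve1 was 0.572, 0.247, 0.418 and -0.030 in muscles 1 to 4, over 37, 45, 46 and 43 sections. The mean was 0.302 for that pair, 0.114 for Lyve1 and Pdpn and 0.053 for Ccl21a and Pdpn. In counts this sparse such values are a description only. No member had a count in 5, 7, 8 and 7 sections of muscles 1 to 4, and 4, 4, 6 and 2 sections had all but Mmrn1.

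Of the genes seen often enough to be ranked, those most like Ccl21a in section profile were not lymphatic genes. Among 9680 genes that were seen in 25% or more of each muscle's sections, the highest mean r over the 4 muscles was 0.669 for the beta-globin Hbb-bs, with 0.599 to 0.731 in single muscles. The alpha-globin Hba-a1 (0.659), the imprinted non-coding RNA H19 (0.647), the beta-globin Hbb-bt (0.602) and the cardiac alpha-actin Actc1 (0.584) came next. The median over these genes was 0.068 and the 99th percentile 0.339. For Lyve1 the 5 highest were Marcksl1 (0.389), Islr (0.385), the microfibril gene Fbn1 (0.380), Scrn3 (0.377) and the smooth muscle actin Acta2 (0.370). For Pdpn they were Fam114a1 (0.355), Pacs1 (0.334), Mmadhc (0.332), Zfp93 (0.327) and Cdc25a (0.312). Flt4 and Mmrn1 were seen in too few sections to be ranked. The 5 genes most like Ccl21a had 10899 to 96078 counts, against 193 for Lyve1. Counting noise lowers r in sparse genes, so the ranking favours abundant genes and cannot show that lymphatic genes were less alike.

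The copies of Ccl21a followed another pattern than Ccl21a itself. The entries that name Ccl21b, Ccl21d, Gm13304 and Gm10591 together had 31 and 24 counts in muscles 3 and 4, and 1 count each in muscles 1 and 2. In CPM these are 1.15 and 1.05 in muscles 3 and 4, with exact 95% counting intervals of 0.780 to 1.63 and 0.672 to 1.56. In muscles 1 and 2 they are 0.053 and 0.058, with upper bounds of 0.294 and 0.326. Ccl21a was at 5.27 and 3.50 CPM in muscles 3 and 4, against 5.50 and 7.54 in muscles 1 and 2. The copies' share of the counts of Ccl21a and copies together was 17.9% and 23.1% in muscles 3 and 4, and 0.952% and 0.769% in muscles 1 and 2. The muscles with the copies are also those with the second barcode set, and muscle and barcode set cannot be told apart here.

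Along muscles 3 and 4 the copies had 6, 11, 15, 18 and 5 counts in zones 1 to 5, where Ccl21a had 61, 88, 44, 28 and 1. In zone 5 the copies thus had 5 counts beside 1 of Ccl21a. Adding the copies to Ccl21a gave a mean level of 6.03 CPM over the 4 muscles and a mean difference between first end and last end of 2.30 on the log2(CPM + 1) scale, against 2.52 without them. No deposited entry names Ccl21a together with another gene. Entries that name Flt4 or Pdpn with unrelated genes held 7 and 3 counts in all, and none does so for Lyve1 or Mmrn1.

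**Figure D3:**
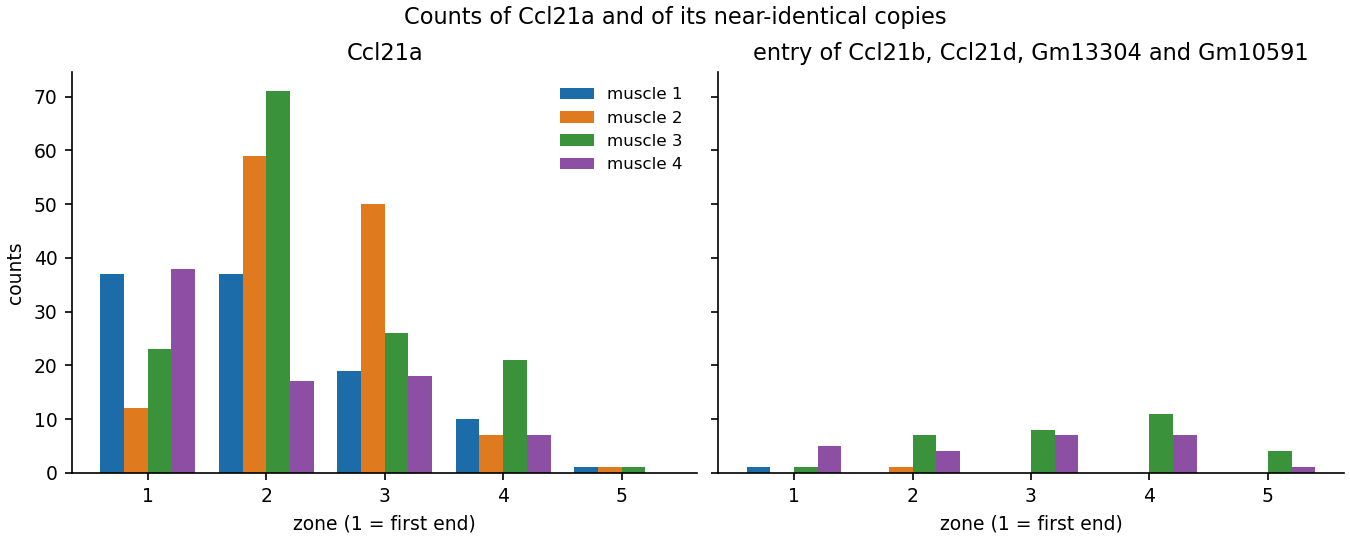
Counts of Ccl21a (left) and of the entries that name its copies Ccl21b, Ccl21d, Gm13304 and Gm10591 (right), by zone from the first end (1) to the last (5), with a bar per muscle. The copies' bars come almost wholly from muscles 3 and 4 and are highest in zone 4, with 18 counts, whereas Ccl21a is highest in zone 2.

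Other genes of lymphatic endothelium were then read from a list of 19, all of which have an entry and 13 of which were tested. Prox1, the defining transcription factor of the lineage, is named for its role and not by the naming rule. It had 68 counts, with 8, 18, 18, 20 and 4 in zones 1 to 5, too few to be tested. Its mean level was 0.540 ± 0.345 CPM at the first end and 0.503 ± 1.01 CPM at the last end (SD, n = 4 each). The first end was higher in 3 of 4 muscles. At the last end the SD exceeded the mean, which rests on 4 counts, so these means do not show equal ends. Between first end and last end 2 of 13 genes of the list were called, both higher at the first end. Their median log2 difference was 0.27, against -0.00076 over all genes tested. DESeq2 called 3 of the 4 list genes to which it gave an adjusted p, so not only those that edgeR called. The direction of these DESeq2 calls is not reported here. Maf of this list was lower at the first end in edgeR, by -0.24 ± 0.07 (log2, SE, edgeR adjusted p = 0.0536). Over all genes DESeq2 gave no adjusted p to 5314 genes in this comparison and to 6553 between ends and middle.

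Fxyd6, a regulator of the sodium pump, was higher at the first end by 0.84 ± 0.19 (log2, SE, edgeR adjusted p = 0.00468), at 10.4 ± 2.86 CPM there and 5.93 ± 1.71 CPM at the last end (SD, n = 4). It was higher in 4 of 4 muscles. Without muscle 1 or 2 it was not called, at 0.77 and 0.71. Prss23, a secreted serine protease, was higher by 0.40 ± 0.10 (edgeR adjusted p = 0.0171), with 68.8 ± 38.4 CPM at the first end and 59.2 ± 33.2 CPM at the last end, higher in 3 of 4 muscles. It was not called without muscle 1, 3 or 4, at 0.35, 0.35 and 0.38. Both differences were smaller than the one fitted for Ccl21a, which was not tested against them.

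Maf, a transcription factor of lymphatic endothelium and of macrophages, was the most abundant of the list with 15012 counts and differed among zones (edgeR adjusted p = 0.000256). It ran the other way, at 144, 159, 197, 210 and 186 CPM in zones 1 to 5, and the first end was lower in 4 of 4 muscles. Nr2f2, the venous and lymphatic transcription factor COUP-TFII, had 1317 counts and was not called (log2 difference between first end and last end of -0.08 ± 0.15, edgeR adjusted p = 0.882). Between ends and middle edgeR called 0 of the 13, and DESeq2 0 of the 2 to which it gave an adjusted p, with 2 at an unadjusted p under 0.05 and a median log2 difference of -0.15, against 0.00076 over all genes. These genes are also made by other cells of muscle, and how much of their signal is lymphatic was not tested.

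Of 14 genes of the lymphatic growth factor axis 13 have an entry and 8 were tested. Ccbe1, a secreted protein that Vegfc processing needs, was lower at the first end by -1.09 ± 0.31 (log2, SE, edgeR adjusted p = 0.0286), at 2.06 ± 0.474 CPM there and 4.79 ± 0.741 CPM at the last end (SD, n = 4). It was lower in 4 of 4 muscles and was not called without muscle 1, 2 or 4, at -1.12, -1.10 and -0.83. The protease Adamts3, which works with Ccbe1, had 3 counts in zone 1 and 21 in zone 5, and did not pass the filter on low counts. Vegfc itself had 92 counts, with 20, 23, 18, 15 and 16 in zones 1 to 5, and was likewise not tested. Adamts3 and Vegfc were named after their values were seen.

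The most abundant genes of the axis were not called between first end and last end. They were Ramp2, the partner of the adrenomedullin receptor (1772 counts, log2 difference between first end and last end 0.0073 ± 0.13), the angiopoietin receptor relative Tie1 (1727 counts, 0.31 ± 0.14), Nrp1 (1370 counts, 0.15 ± 0.15) and the ligand Angpt1 (621 counts, -0.015 ± 0.21). Their edgeR adjusted p were from 0.285 to 0.993, and 2 of the 8 tested had an unadjusted p under 0.05. The median of the 8 tested was 0.080. Between ends and middle edgeR called 0 of the 8, and DESeq2 0 of the 3 with an adjusted p, with 0 at an unadjusted p under 0.05. DESeq2 also called 0 of 3 between the ends and gave none to Ccbe1.

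**Figure D4:**
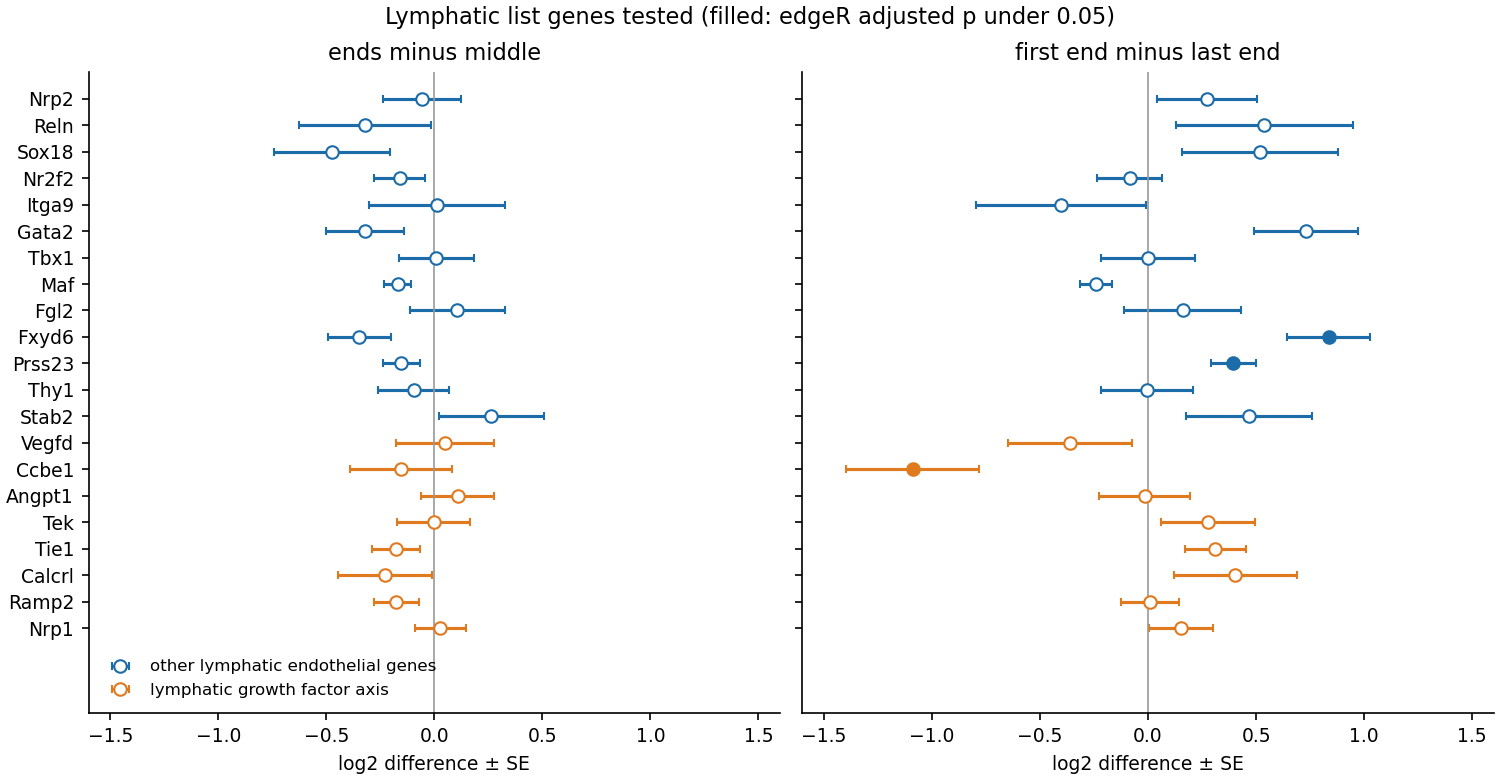
Fitted log2 difference ± SE of the 13 other lymphatic endothelial genes and 8 growth factor axis genes tested, between ends and middle (left) and between first end and last end (right); filled points have an edgeR adjusted p under 0.05. Only Fxyd6, Prss23 and Ccbe1 are filled, all on the right.

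The receptors that read Ccl21a were almost undetected. Ccr7 had 2 counts and the scavenging receptor Ackr4 had 7 over all kept sections, and Ccl19, the other ligand of Ccr7, has no entry. Among 13 lymphocyte markers 12 have an entry, and the T cell genes Cd3e, Cd3g, Trac and Trbc1 had 11, 1, 10 and 2 counts. The B cell gene Ms4a1 had 1. Ighm, the heavy chain of IgM and the only marker of this list tested, was lower at the first end by -1.08 ± 0.26 (log2, SE, edgeR adjusted p = 0.00686), at 3.18 ± 3.52 CPM there and 6.65 ± 7.40 CPM at the last end. The first end was the lower one in 3 of 4 muscles, and Ighm was not called without muscle 3 or 4, at -1.14 and -0.97. The summed lymphocyte level was 1.06 to 9.04 CPM at the first end and 0.300 to 14.6 CPM at the last end. Of the partners of Lyve1 and Pdpn, the hyaluronan receptor Cd44 and the podoplanin-binding protein Msn were tested and edgeR called 0 of 2 in any comparison, with 1 at an unadjusted p under 0.05 between ends and middle. DESeq2 called 0, since it gave neither an adjusted p. The platelet receptor Clec1b had 1 count.

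Markers of other cells moved along the muscle with Ccl21a and against it, and their part in its course was not tested. All 5 genes of the erythrocyte list were higher at the first end (median log2 difference 1.87, 4 of 4 with an adjusted p also by DESeq2), with Hbb-bs at 484 ± 176 CPM there and 153 ± 66.8 CPM at the last end (SD, n = 4, 1.82 ± 0.12, edgeR adjusted p = 6.03e-18). The summed level of the list was 1339 to 3552 CPM at the first end and 633 to 1198 CPM at the last end, and its r with Ccl21a over sections was 0.592 to 0.727 in the 4 muscles. For Lyve1 that r was -0.060 to 0.559. Of the nerve sheath list 2 of 5 tested were higher at the first end, among them the Schwann cell transcription factor Sox10 (1.70 ± 0.36, edgeR adjusted p = 0.00167), which was not called without muscle 4, at 0.88. The list's median was 1.29 and its r with Ccl21a 0.495 to 0.640. Its summed level was 11.8 to 38.9 CPM in zone 1, 24.4 to 43.6 CPM in zone 2 and 9.08 to 12.6 CPM in zone 5. As with Ccl21a, zone 2 was its highest zone in muscles 1 to 3 and zone 1 in muscle 4.

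The other lists differed less between the ends, apart from tendon. Of the arterial smooth muscle list Acta2 and Myh11 were higher at the first end, 2 of 6 (0.60 ± 0.14 and 0.79 ± 0.16, median 0.42). Acta2 was not called without muscle 1 or 4 (0.41 and 0.40), nor Myh11 without muscle 4 (0.43), and DESeq2 called neither (adjusted p = 0.194 and 0.0753). Of the blood endothelial list the Vegf receptor Kdr was higher, 1 of 11 (0.82 ± 0.18, median 0.20), and was not called without muscle 1 or 2, at 0.72 and 0.77. The tendon genes Mkx, Fmod, Chad and Prg4 were lower at the first end, 4 of 6, from -3.82 to -2.22 (median -2.51). Their list summed to 39.4 to 51.6 CPM there and 73.7 to 227 CPM at the last end, and its r with Ccl21a was -0.647 to -0.363. Of the fibroblast list Cxcl14 and Col15a1 were higher and Col1a1 lower, 3 of 10 (0.93 ± 0.15, 0.67 ± 0.15 and -0.72 ± 0.16). Col15a1 was not called without muscle 2 or 3 (0.56 and 0.58), nor Col1a1 without muscle 1 (-0.30) or by DESeq2 (adjusted p = 0.133). The fibre genes Myh4 and Pvalb were lower, 2 of 6 (-0.31 ± 0.08 and -0.27 ± 0.08). Myh4 was not called without muscle 2 or 4 (-0.20 and -0.33), nor Pvalb without any one muscle (-0.31 to -0.21). Of the macrophage, platelet and adipocyte lists edgeR called 0 of 5, 2 and 2, with 2, 0 and 0 at an unadjusted p under 0.05, and DESeq2 called 0, with an adjusted p for 1 macrophage gene. No keratinocyte marker was tested. By DESeq2 1 of the 2 tendon genes with an adjusted p was called (Prg4), and no nerve sheath gene had one.

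Between ends and middle, some genes of the macrophage and fibroblast lists were called lower at the ends. Such cells can also carry Lyve1 or Pdpn, and a link to the course of the members was not tested. Of the macrophage list C1qb and C1qc were lower, 2 of 5 (-0.57 ± 0.14 and -0.65 ± 0.18, median -0.63). Neither was called without muscle 1, 2 or 4, nor C1qc without muscle 3 (-0.49, -0.58 and -0.37 for C1qb, -0.75 to -0.59 for C1qc). The list summed to 21.7 to 29.3 CPM in zone 1 and 20.1 to 45.7 CPM in zone 5, against 32.9 to 56.5 CPM in zone 3. Of the fibroblast list Dcn, Cxcl14, Gsn, Mfap5 and Col15a1 were lower, 5 of 10, from -0.92 to -0.31 (median -0.42). Col1a1 went the other way and was not called (0.43 ± 0.14, edgeR adjusted p = 0.106). Gsn was not called without muscle 1 or 3 (-0.15 and -0.22) or by DESeq2 (adjusted p = 0.113), nor Mfap5 without muscle 2 (-0.48). Of the nerve sheath list 3 of 5 were lower, among them Sox10 and Pmp22 (-0.89 ± 0.26 and -0.59 ± 0.16). Neither was called without muscle 2 or 3 (Sox10 -0.90 and -0.66, Pmp22 -0.63 and -0.37), nor Pmp22 without muscle 1 (-0.61). Pf4, a chemokine of platelets, was lower, 1 of 2 (-0.72 ± 0.17), and not called without muscle 3 (-0.64). The adipocyte genes Adipoq and Cfd were higher at the ends, 2 of 2 (2.06 ± 0.43 and 1.70 ± 0.42), and Cfd was not called without muscle 1 (1.49). In the lymphocyte, blood endothelial, smooth muscle, erythrocyte, tendon and fibre lists edgeR called 0 genes, with 0, 3, 0, 1, 2 and 2 at an unadjusted p under 0.05. DESeq2 called 2 fibre genes and 0 of the others, and gave no macrophage, nerve sheath, adipocyte, platelet or lymphocyte gene an adjusted p in this comparison. Of list genes not named so far Flt1, Ly6a, Itgb4, Mbp, Thbs4 and Mylpf were called for a difference among zones (edgeR adjusted p from 5.69e-06 to 0.0435). Of these, 5 lost the call without 1 muscle: Flt1 without 2 or 3, Ly6a without 1, 3 or 4, Itgb4 without 1 or 4, Mylpf without 2, 3 or 4 and Thbs4 without any one.

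**Figure D5:**
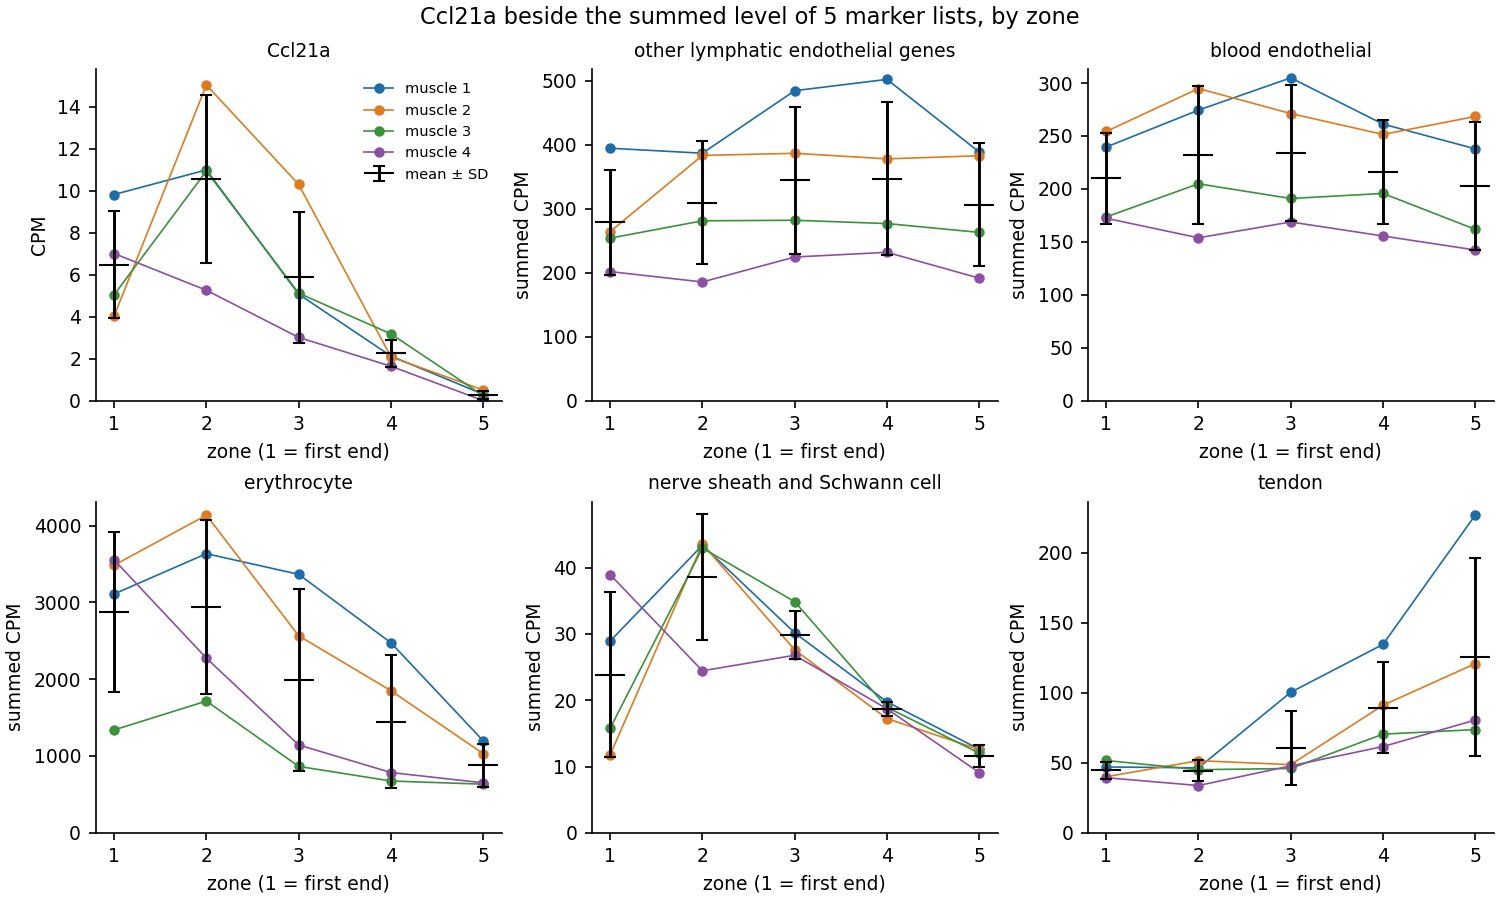
Level in CPM of Ccl21a and summed level of 5 marker lists by zone, from the first end (1) to the last (5), with a point and line per muscle and the mean ± SD of the 4 muscles in black. The summed erythrocyte and nerve sheath levels are lower in zone 5 than in zone 2 in every muscle, as is Ccl21a. Tendon is highest in zone 5 in every muscle. The summed list of other lymphatic genes has means between 278 and 347 CPM. Maf, with 15012 counts, and Prss23, with 5804, weigh most in that sum, whereas Prox1 has 68.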

How the data were processed

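The RNA of single cryosections was measured by TOMO-seq with CEL-Seq2. The labels' protocols give primers with a 6-base molecular identifier and an 8-base section barcode. The submitters' processing notes name the aligner STAR 2.7.7a and the build GRCm38, while the sources used here do not name the counting program or its use of strand. The authors deposited estimated counts per gene and barcode for 96 barcodes per muscle, which from their values are corrected for repeated identifiers out of 4096. They also deposited a normalized signal for a subset of genes and sections, used here only to learn which sections were kept (matched within 1e-06). Entries that name several genes (0.58% to 0.93% of counts) were left out.

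For each zone of each muscle the counts were added up and then rounded (20 sums, 1989683 to 6604613 counts each). The test was that of edgeR 4.0.16 under R 4.3.3 (TMM, filterByExpr, quasi-likelihood test, Benjamini-Hochberg over 9136 genes, threshold 0.05), with zone and muscle as terms, since zones of a muscle come from the same tissue. The contrasts were zones 1 and 5 against zone 3, zone 1 against zone 5, and any zone. The fit was tried on simulated data with a constant dispersion and no muscle effect. These settings differ from the data here, so the trial does not show how the fit performs on them. The p-values measure the spread among these sums, which may be technical. Standard errors come from that fit, and the pseudocount of per-muscle log2 values was 1 CPM.

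The members and the 16 gene lists were chosen with earlier results of these data known. The naming rule takes all members, every list gene called in a comparison, of the lymphatic lists also up to 4 genes with most counts, and the 5 genes most alike to each member. Of the lists' 146 genes 137 have an entry, and some are counted in their lists but not reported here by name. Alternatives were other scaling, no filter, no block, 3 zones, DESeq2 1.42.0, single barcode sets and leaving out each muscle. Intervals are exact Poisson or, for ratios, exact binomial at 95%, and cover counting error only.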

Additional observations from a re-analysis of the deposited data

Results flagged for a closer look

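The level of Pdpn in muscle 3, 1.30 CPM, lay apart from the other 3 muscles, whose values were within 0.760 to 0.845 CPM. By chance about 5% of such groups of 4 show a sample this far off, and 16 groups of values of the members and copies were examined.

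Barcodes that the authors left out, which lie mostly after the last kept section, held 2644800 counts over the 4 muscles. They had 10 counts of Ccl21a (3, 1, 6 and 0 in muscles 1 to 4) and 13 of Lyve1 (1, 4, 7 and 1), above the limit of 3 counts that a count of 0 allows. Of these, 6 and 12 were in barcodes after the last kept section. In all left-out barcodes Flt4 and Mmrn1 had no count and Pdpn had 1.

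The entries of the Ccl21a copies, which take no part in the counts of Ccl21a, held 57 counts over the kept sections, 55 of them in muscles 3 and 4. The division between muscles was not tested.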

How the results depend on the processing

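Without muscle as a block, edgeR called 0 genes between ends and middle, 1 between first and last end and 5 for any zone (210, 315 and 175 at an unadjusted p under 0.05), against 195, 307 and 426 with the replicate block. Of the list genes 0, 0 and 2 were then called, against 13, 23 and 38. Between ends and middle, 41 genes were called with 3 zones, 63 in muscles 1 and 2, 60 in muscles 3 and 4 and 120 by DESeq2, with 8, 3 and 5 list genes called with 3 zones, in muscles 3 and 4 and by DESeq2. Leaving out 1 muscle gave 49 to 219 genes and 5 to 14 list genes. Between first and last end, 197 genes were called in muscles 1 and 2 and 77 in muscles 3 and 4, with 15 list genes in muscles 3 and 4 and 14 by DESeq2. Leaving out 1 muscle gave 103 to 209 genes and 14 to 21 list genes. For any zone, 204 and 183 genes and 22 and 20 list genes were called in the barcode sets alone, and 14 list genes by DESeq2, which gave no adjusted p to 5845 genes there. Leaving out 1 muscle gave 200 to 352 genes and 25 to 30 list genes. The causes were not tested, but the subsets hold fewer samples. With 3 zones the fitted differences of Ccl21a were -0.98 (ends and middle) and 3.10 (first and last end). Without mitochondrially encoded genes in the total, the mean levels were 14.5, 6.39, 2.24, 0.462 and 2.501 CPM for Ccl21a, Lyve1, Flt4, Mmrn1 and Pdpn. No called result changed direction. Of the 11, 22 and 35 list genes called that passed the low-count filter in all 4 fits that leave out a muscle, 3, 10 and 19 stayed called in each, and 2, 1 and 3 did not pass it in every one. Of the 4, 15 and 21 to which DESeq2 gave an adjusted p, it called 3, 12 and 14. Adding the copies and leaving out muscles for the mean levels were chosen after seeing the data. No entry names Ccl21a with other genes, so that alternative gave no value. Flt4, Mmrn1 and Pdpn, with 69, 15 and 82 counts, are limited by depth.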

Other observations

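Ighm, like the entries of the Ccl21a copies, was higher in the muscles of the second barcode set, at 7.86 and 7.52 CPM in muscles 3 and 4 and at 0.476 and 0.467 CPM in muscles 1 and 2. It was chosen after its values were seen. The difference was not tested, and barcode set and muscle cannot be told apart.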
